A study of Mus musculus with 32 samples.

Results

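Thymocytes of P72 mice taken 4 h after 5 Gy of gamma radiation were set against thymocytes of untreated P72 mice, called 0 h here. The samples were chosen by their labels, 4 arrays at 4 h and 4 at 0 h, which makes 8 of the 32 arrays of the series. The P72 mice have a proline and the R72 mice an arginine at codon 72 of p53, and the series asks how thymocytes with these variants respond to irradiation. Every mouse was a C57Bl/6 animal 6 weeks old, every sample is labelled as a pool of 2 mice, 1 male and 1 female, and the labels call the 4 arrays in each P72 and R72 group independent experiments. Beside P72 at 4 h and 0 h, the comparisons below use 4 arrays of P72 at 2 h after the same dose, 4 arrays of R72 at 4 h and 4 at 0 h, and 1 array of p53-/- mice at 4 h against 2 at 0 h. How the codon was exchanged in the P72 and R72 mice and what was deleted in the p53-/- mice are not given in the sources used here. The RNA came from the whole thymocyte preparation, so a lower share of 1 cell type and less RNA per cell cannot be told apart.

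Ionising radiation breaks DNA, and the kinases that sense the breaks stabilise p53, a transcription factor that switches on genes of growth arrest, repair and cell death. Thymocytes at the double positive stage, which carry both Cd4 and Cd8, make up most of the thymus and are known for a quick p53-dependent death after irradiation. Dying cells are taken up by macrophages and epithelial cells of the organ, and such clearance is known to be accompanied by chemokine and cytokine signals.

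Levels are log2 fluorescence signals minus the 75th percentile of the signals on the same array. A change is the mean level at 4 h minus the mean level at 0 h, and ± gives its standard error from limma. Genes were called at an adjusted p under 0.05 (limma, Benjamini-Hochberg over 20536 genes). "Rose" and "fell" are used of called genes only, and 1 unit of log2 is a 2-fold difference. A gene with no array well above background in 1 group has only a lower bound for its fold.

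Some array-wide measures of signal moved with time after irradiation. The 75th percentile of the signal was 268 to 441 fluorescence units at 4 h and 393 to 726 at 0 h (exact permutation p = 0.0571, two-sided). The 153 negative control spots, which match no transcript, had median scaled levels of -6.92, -6.64, -7.62 and -7.30 at 4 h, against -7.80, -7.93, -7.90 and -7.71 at 0 h. They were higher on every array at 4 h, by 0.71 on average (exact permutation p = 0.0286, the smallest that 4 against 4 unpaired arrays allow). Before scaling, their median signal was 1.65 to 3.63 units at 4 h and 1.86 to 3.26 at 0 h. These ranges overlapped, and a lower 75th percentile by itself raises the scaled level. The cause of the differences between arrays was not tested. Between 60.6% and 69.1% of probes were well above background at 4 h and between 60.4% and 62.7% at 0 h. Xist, the transcript that silences an X chromosome in female cells, went against the label of mixed pools: it was at -6.96 and -6.55 in replicates 1 and 3 and at 5.39 and 5.83 in replicates 2 and 4 at 4 h, with -7.81 and -7.92 against 5.29 and 5.67 at 0 h. The Y-linked gene Ddx3y, looked at after the values of Xist were seen, ran the other way, with 1.57, -6.6, 1.53 and -5.19 at 4 h and 1.95, -7.95, 1.95 and -7.77 at 0 h. Each time point thus held the same number of arrays of both kinds. The thymocyte genes Cd3e, Cd4, Cd8a, Rag1, Ptcra and Lck were well above background on all 8 arrays.

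The response at 4 h was broad. Of 20536 genes, 11633 were called (56.6%), of which 7355 rose (35.8%) and 4278 fell (20.8%), and the values of 10945 genes did not overlap between 4 h and 0 h (53.3%). Large changes were nearly all rises: 4868 genes rose and 348 fell at least 2-fold, and 82 rose and 1 fell at least 16-fold. The name that fell that far, the unannotated transcript NAP056910-1, was singled out after its values were seen: it had -6.66, -5.61, -6.35 and -7.16 at 4 h, none well above background, against -1.04, -0.16, -6.43 and -0.07 at 0 h, where replicate 3 was as low as the 4 h arrays. Its call (adjusted p = 0.0394) was lost with normexp background correction, with slide as a block, within each scan date and without 7 of the 8 arrays in turn (adjusted p = 0.0518 to 0.105). The balance of rises and falls depended on the scaling, because the 75th percentile sets which level counts as no change. Rises were 63.2% of the calls in this scaling, 26.7% with each array centred on its median, 51.9% after quantile normalization, 48.7% in the authors' tabulated values and 46.8% among genes well above background on all 24 arrays of the fit. The median change over all genes was 0.10 in this scaling and -0.52 with arrays centred on their medians. Rises smaller than that difference turn to falls with that centring, while falls become deeper. Normexp background correction moved the median the other way, to 0.32. Within the arrays of scan date 1 alone (replicates 1 and 2) 5370 genes rose and 3481 fell, and within scan date 2 (replicates 3 and 4) 5638 rose and 2222 fell. Of the genes named below, Bcl2l11, Casp1, H2-K1, Irf1 and Nfkb2 kept their sign but lost their call with arrays centred on their medians, as did Bcat1, Ccne2, Gfra1, Nr4a3, Per2, Rag1 and Wfdc12 with normexp background correction. Calls were also lost by Cpt1c, Nr4a3, Vmn2r43 and Wfdc12 when dim levels were raised to a common floor, by Rag1 in the authors' tabulated values, by Per2 and Rag1 within scan date 1 and by Itgb1, Lck, Rag1, Tgfb1 and Xbp1 within scan date 2.

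How a gene changed went with how bright it was. Among the 1056 genes of mean level below -6, 68.2% rose and 1.23% fell, with a median change of 1.84. In the bands from -6 to -4 and from -4 to -2, 62.9% and 50.3% rose and 3.43% and 9.17% fell. In the band from -2 to 0, 29.1% rose and 21.3% fell, and among the 1152 genes above 4, 10.7% rose and 43.8% fell with a median change of -0.19. R72 thymocytes showed medians of 1.45 in the dimmest band and -0.16 in the brightest, while p53-/- thymocytes showed 0.21 and -0.12. Genes were kept if a probe was well above background on at least 4 of 32 arrays. A dim gene that passed through P72 arrays at 4 h had to be bright there. Rises in the dim bands, and their distance from p53-/-, were thus in part set by the filter. With no filter the median change over all names was 0.51. Of the rises, 1716 were of genes with no array well above background at 0 h. When every level was raised to a common floor of -3.99, the highest detection limit of the 32 arrays, 5071 genes rose (24.7%) and 4169 fell (20.3%), 45% called in all, of which 4978 and 4060 were called the same way without the floor. The counts of gene groups below therefore stand, for the main groups, beside the share of all genes of the same brightness that rose or fell. The negative control spots were higher at 4 h like the dim genes, and their part in the rises of dim genes was not tested.

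**Figure D1:**
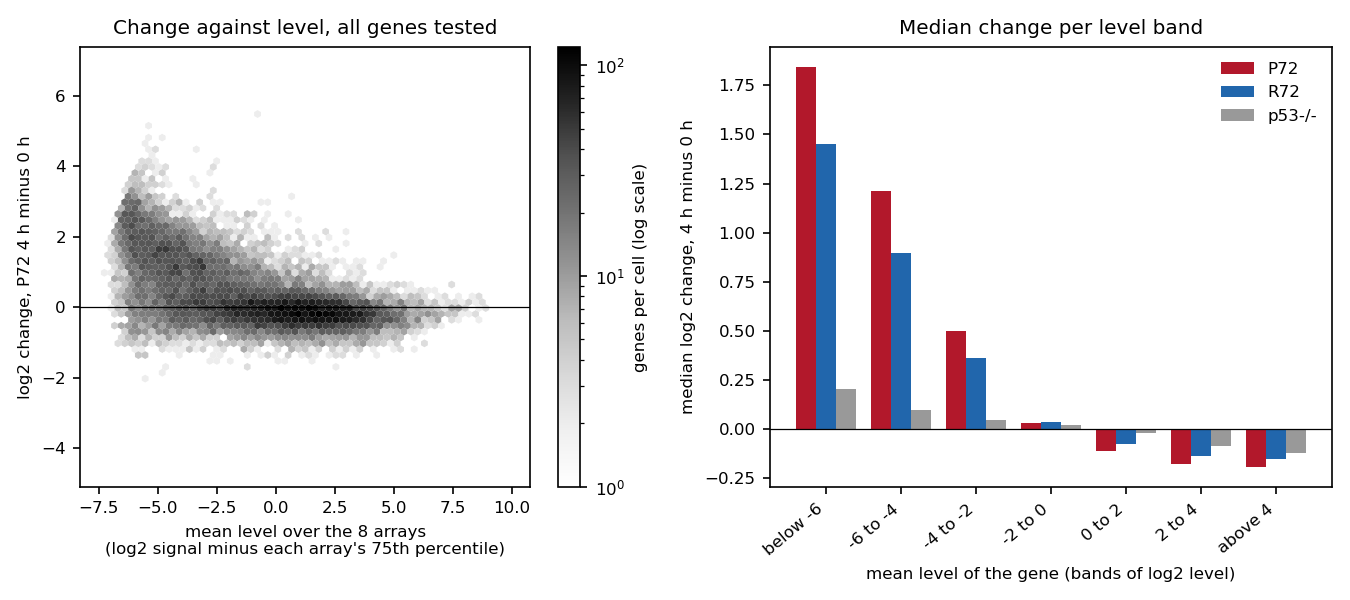
Left, log2 change of each gene tested (P72 4 h minus 0 h) against its mean level over the 8 arrays, with grey cells shaded by the number of genes. Right, median log2 change at 4 h in bands of level, for P72 (red), R72 (blue) and p53-/- (grey): the P72 median is 1.84 below a level of -6 and -0.19 above 4, and the p53-/- medians are 0.21 and -0.12. Dim genes could pass the filter through P72 and R72 arrays at 4 h.

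Most p53 targets that act in cell death rose. Of 19 tested, 13 rose and 5 fell, with a median change of 1.99, whereas 17.6% of all genes of the same brightness rose. Bbc3 (PUMA), a BH3-only protein that triggers mitochondrial death, had levels of 6.52, 6.59, 6.6 and 6.81 at 4 h, against 3.48, 3.21, 3.20 and 3.29 at 0 h, a change of 3.33 ± 0.09, which is 10.1-fold (adjusted p = 9.72e-17). Its arrays within a time point lay close together and the groups were far apart. Phlda3, a repressor of the survival kinase Akt, stood at 4.96, 5.08, 5.18 and 4.94 at 4 h, against 0.57, 0.60, 0.62 and 0.37 at 0 h, and rose by 4.50 ± 0.10 (adjusted p = 4.51e-17). Pmaip1 (NOXA), another BH3-only protein, had 1.80, 2.00, 2.54 and 2.77 at 4 h, against -1.34, -0.56, -0.85 and -0.92 at 0 h. It rose by 3.20 ± 0.19, with a wider spread between arrays than Bbc3 and no overlap. The pore-forming effector Bax was at 3.95, 4.05, 4.14 and 3.75 at 4 h and at 1.89, 1.71, 1.85 and 1.72 at 0 h and rose 4.53-fold. The nuclease Aen, the endoplasmic reticulum protein Ei24 and the RNA-binding protein Zmat3 rose by 2.17 ± 0.10, 1.99 ± 0.09 and 2.66 ± 0.15. Members of the same list that fell were Bid, which links death receptors to mitochondria, at -0.29, -0.45, -0.12 and -0.15 at 4 h against 1.22, 1.04, 1.31 and 1.10 at 0 h, and Siva1, a partner of the receptor Cd27, at -0.91 ± 0.12. All 4 values of Bid at 4 h lay below all 4 at 0 h.

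Targets that stop the cell cycle rose as well, with 10 of 14 members up and 2 down (median 1.31). Among genes as bright 25.4% rose and 27.6% fell. Cdkn1a (p21), the inhibitor of cyclin-dependent kinases through which p53 halts cells before S phase, had 1.3, 1.57, 1.57 and 1.44 at 4 h, against -3.66, -2.44, -2.59 and -3.32 at 0 h. The change of 4.47 ± 0.24 was 22.2-fold (adjusted p = 2.07e-11), and the arrays at 4 h differed from each other by far less than those at 0 h. Plk2, a polo-like kinase, was at -1.02, -0.84, -0.53 and -0.31 at 4 h and at -6.46, -4.87, -5.34 and -6.46 at 0 h, where 2 of 4 arrays were well above background. It rose by 5.11 ± 0.28, and every 4 h array lay more than 3 log2 units above every 0 h array. The microtubule protein Psrc1 rose by 3.05 ± 0.12, cyclin G1 (Ccng1) by 2.26 ± 0.11, and the stress sensors Gadd45b and Gadd45g by 2.04 ± 0.16 and 2.21 ± 0.13.

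Promoters of 2 of these arrest genes are shown because the sequence tabulated by RefSeq (build GRCm38.p6) holds letters that match the p53 site. Sequences run from 5′ to 3′ on the strand of the gene. Capitals mark a match to the p53 site, 2 abutting half-sites of 10 bases, with at most 1 mismatch. Cdkn1a is on the plus strand, at chr17:29090888-29090978, and Ccng1 on the minus strand, at chr11:40755422-40755521.
Cdkn1a promoter: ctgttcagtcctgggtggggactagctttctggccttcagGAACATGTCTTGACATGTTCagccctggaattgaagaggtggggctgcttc
Ccng1 promoter: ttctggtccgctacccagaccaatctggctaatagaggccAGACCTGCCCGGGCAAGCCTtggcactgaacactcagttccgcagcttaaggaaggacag
Searched on both strands of the 250 bases before the start of 27025 genes, such a site with at most 1 mismatch was found for 0.0703% of genes and with at most 2 for 0.329%. Of the 47 tested genes with at most 2 mismatches, 57.4% rose and 14.9% fell, against 35.7% and 24.5% of the 11603 tested genes that have a promoter in the table. A match, here and for the motifs below, describes letters and is not a measured site. Here and below, genes with a motif were set against all tested genes with a promoter, not against genes as bright.

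Feedback, repair and metabolic targets of p53 moved less evenly. Of 9 feedback genes, 5 rose and 0 fell (22.7% and 32.2% of genes as bright), with a median of 0.34 that turned to -0.28 with arrays centred on their medians. Mdm2, the ubiquitin ligase that degrades p53, had 2.96, 3.13, 3.18 and 3.27 at 4 h, against 2.54, 2.57, 2.51 and 2.51 at 0 h, a rise of 0.60 ± 0.12 that was -0.02 with arrays centred on their medians. Ppm1d (WIP1), a phosphatase that switches damage signalling off, rose by 0.89 ± 0.07. Of 12 repair genes and sestrins, 6 rose and 4 fell, where 27.2% and 27.1% of genes as bright did. The sestrin Sesn2, an inhibitor of mTORC1 signalling, stood at 2.43, 2.70, 2.24 and 2.71 at 4 h, against 0.74, 0.99, 0.55 and 0.30 at 0 h. It rose by 1.88 ± 0.14, and the translesion polymerase Polk rose by 1.28 ± 0.11. Of 18 metabolic and other targets, 12 rose and 2 fell (median 1.42), where 36.7% and 19.8% of genes as bright did. The secreted factor Gdf15 was at 1.73, 1.78, 1.70 and 2.41 at 4 h and at -3.18, -3.90, -3.61 and -3.69 at 0 h, 45.3-fold higher (adjusted p = 6.27e-12). Replicate 4 was the highest at 4 h and every array at 4 h lay above every array at 0 h. The mitochondrial proline enzyme Aldh4a1 rose by 1.71 ± 0.08, the receptor kinase Epha2 by 3.50 ± 0.16 and the adenylate kinase Ak1, measured on 3 of 4 arrays at 0 h, by 2.48 ± 0.19. Cpt1c, a carnitine palmitoyltransferase, had no 0 h array well above background and a level at least 2.65-fold higher at 4 h (adjusted p = 1.63e-09), but its change was 0.06 with the common floor (adjusted p = 0.171). Trp53 itself had -0.12, 0.46, 0.37 and 0.33 at 4 h, against 0.09, 0.13, 0.29 and 0.36 at 0 h, a difference of 0.04 ± 0.17 (adjusted p = 0.849) with overlapping values. Its probes disagree, since their mean gave 1.09 (adjusted p = 0.000207) and arrays centred on their medians gave -0.58 for the brightest probe.

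**Figure D2:**
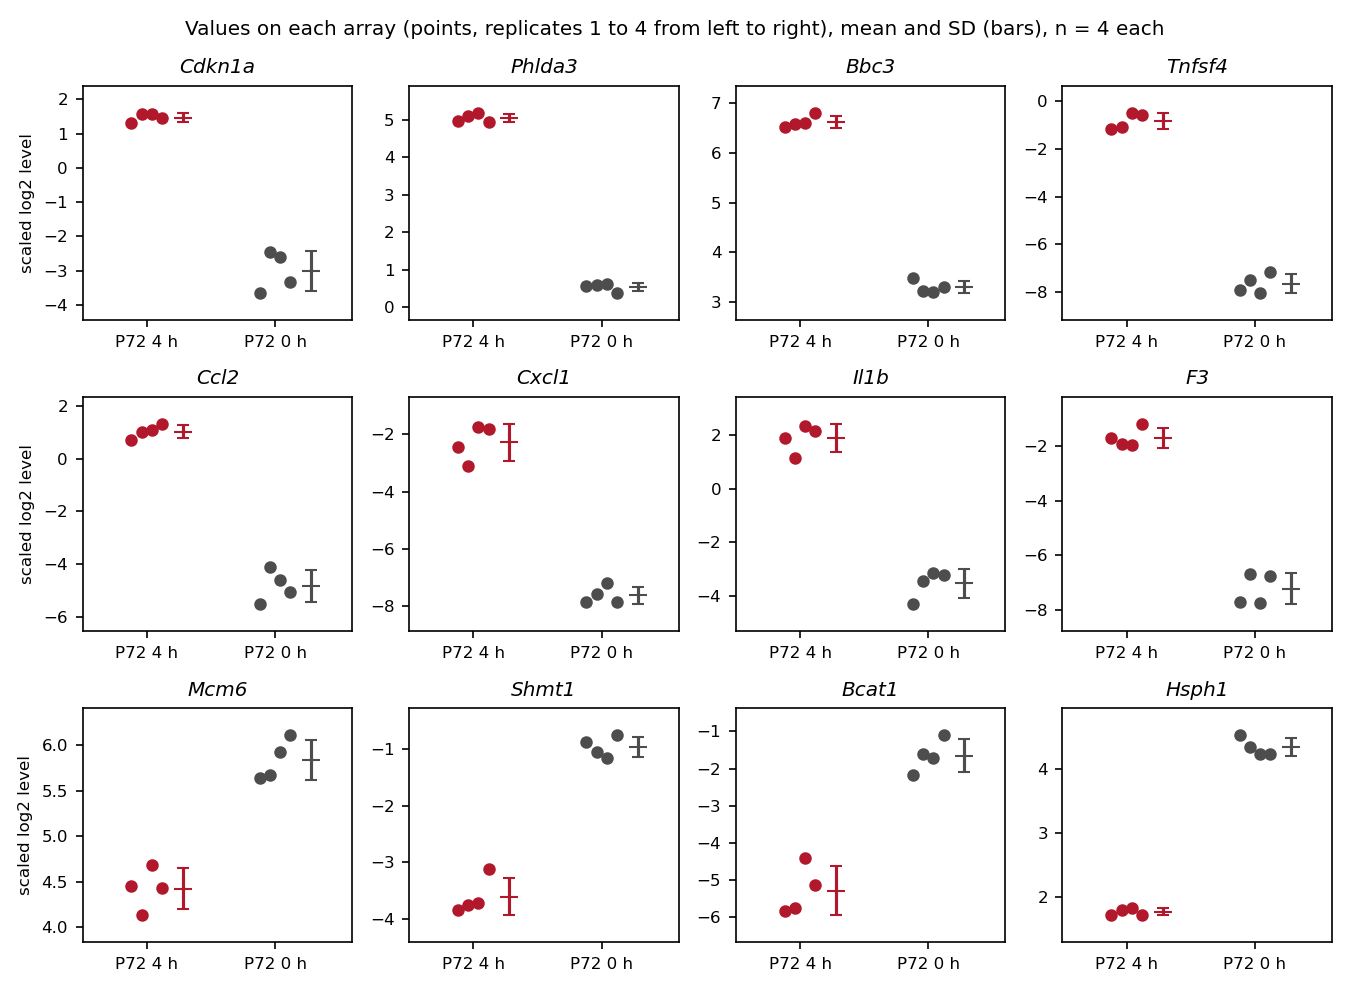
Scaled log2 level of 12 genes on each P72 array, 4 h (red) left of 0 h (grey), with replicates 1 to 4 from left to right in each group and the mean and SD (n = 4) beside them. In all 12 panels the 4 h values lie clear of the 0 h values: the first 8 genes are higher at 4 h, such as Cdkn1a at 1.3 to 1.57 against -3.66 to -2.44, and the last 4 are lower, such as Hsph1 at 1.71 to 1.82 against 4.24 to 4.54.

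Other members of the death machinery moved in both directions. Of the 5 tested pro-survival genes of the Bcl2 family 1 rose, Bcl2a1b at 1.63 ± 0.18, where 16% of genes as bright did. The survival factor Bcl2 was at -0.12 ± 0.13 (adjusted p = 0.462) and its relative Mcl1 at 0.10 ± 0.08 (adjusted p = 0.309), each with overlapping values. Among BH3-only genes 4 of 9 rose and 2 fell, where 20.9% and 31.9% of genes as bright did. Bcl2l11 (BIM), needed for deletion of self-reactive thymocytes, rose by 0.80 ± 0.11, and Bmf was at -0.85 ± 0.21 (adjusted p = 0.00193). Receptors of the TNF family rose for 13 of 18 and fell for 3, where 33.8% and 22.4% of genes as bright did. Tnfrsf10b, the mouse receptor for the death ligand TRAIL, had -3.41, -3.36, -3.34 and -3.33 at 4 h, against -5.27, -6.05, -4.97 and -5.19 at 0 h, and rose by 2.01 ± 0.16. Its values at 4 h were nearly equal and those at 0 h were spread, with 3 of 4 arrays well above background. The co-stimulatory receptors Tnfrsf18 (GITR) and Tnfrsf4 (OX40) rose by 1.33 ± 0.07 and 1.32 ± 0.14, and Cd27 fell by 0.55 ± 0.11 (log2).

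TNF family ligands rose for 8 of 14 and fell for 0, where 44.1% and 14.2% of genes as bright did, with a median of 0.53 that turned to -0.10 with arrays centred on their medians. Tnfsf4 (OX40 ligand) had -1.17, -1.10, -0.50 and -0.60 at 4 h, against -7.92, -7.51, -8.03 and -7.15 at 0 h. No array at 0 h was well above background, and the gene was at least 28.1-fold higher at 4 h (adjusted p = 2.3e-13). Tnfsf8 (CD30 ligand) stood at -0.0039, 0.25, 0.18 and 0.37 at 4 h, against -3.41, -2.94, -3.12 and -3.09 at 0 h, 10.1-fold higher. The Cd27 ligand Cd70 rose by 2.80 ± 0.48 and the Fas ligand Fasl by 1.56 ± 0.13, where Cd70 was well above background on 3 of 4 arrays at 0 h.

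Chemokine genes rose almost throughout. Of 15 CC ligands tested 14 rose and 0 fell (median 1.76), and of 15 CXC and other ligands 12 rose and 0 fell (median 1.72), while 37.5% and 51.3% of all genes of the same brightness rose. With the common floor 14 and 8 rose. Ccl2, the main attractant of monocytes, was at 0.74, 1.01, 1.09 and 1.32 at 4 h and at -5.53, -4.10, -4.59 and -5.05 at 0 h, 58-fold higher (adjusted p = 8.5e-12). Its neighbour Ccl7, also a monocyte attractant, was at -0.22, 0.01, -0.07 and 0.15 at 4 h and at -7.68, -5.43, -5.82 and -6.64 at 0 h, where 1 array was well above background. Ccl4 (MIP-1 beta) had 0.50, 0.46, 1.05 and 1.34 at 4 h, against -1.95, -2.19, -2.39 and -2.19 at 0 h, and rose by 3.02 ± 0.20. In each of these genes the 2 groups were clear of each other by more than the spread of either. Cxcl1, a neutrophil attractant, stood at -2.44, -3.11, -1.73 and -1.82 at 4 h, against -7.88, -7.59, -7.21 and -7.86 at 0 h with no array well above background, and was at least 10.4-fold higher (adjusted p = 4.12e-10). The related Cxcl2 was at least 3.74-fold higher, and the interferon-induced T cell attractant Cxcl10 rose by 2.80 ± 0.31. Of 16 chemokine receptors 10 rose and 1 fell (37.9% and 18.9% of genes as bright), with a median of 0.55 that turned to -0.07 with arrays centred on their medians.

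The promoter of Cxcl1 is shown for a match to the kB motif bound by NF-kB, searched on both strands as GGGAN followed directly by TTTCC and marked by capitals (RefSeq, GRCm38.p6, plus strand, chr5:90891134-90891223, 5′ to 3′).
Cxcl1 promoter: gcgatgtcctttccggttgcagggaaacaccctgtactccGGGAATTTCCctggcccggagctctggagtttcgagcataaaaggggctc
These letters stand in the 250 bases before the start of 0.414% of genes. Of 62 tested genes that hold them 58.1% rose and 11.3% fell, against 35.7% and 24.5% of all tested genes with a promoter in the table. Of the 12 CXC and other ligands with a promoter 3 hold them, Cxcl1, Cxcl2 and Cxcl3. Among other lists that rose, 0 of 9 CC ligands, 0 of 9 coagulation genes and 2 of 15 interleukins and growth factors hold them.

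Cytokines and the regulators of NF-kB rose with the chemokines. Of 19 interleukins and growth factors 16 rose and 1 fell, where 47.9% and 11.3% of genes as bright did. Their median was 1.67, and 1.0 within scan date 1 and 1.92 within scan date 2. Il1b, the inflammatory cytokine released by activated macrophages, was at 1.89, 1.14, 2.34 and 2.14 at 4 h and at -4.31, -3.43, -3.13 and -3.21 at 0 h, 42.2-fold higher (adjusted p = 4.1e-11). Replicate 2 was the lowest at 4 h and still lay 4 log2 units above the highest array at 0 h. Il6 had -3.52, -4.17, -2.90 and -2.89 at 4 h, against -7.71, -7.33, -7.0 and -7.15 at 0 h with none well above background, at least 4.87-fold higher. The macrophage growth factor Csf1 rose by 3.33 ± 0.26, and Tgfb1 was at -0.42 ± 0.11 (adjusted p = 0.00336). The natural blockers of interleukin 1 rose too, the receptor antagonist Il1rn by 3.22 ± 0.24 and the decoy receptor Il1r2 by 2.57 ± 0.20. Socs3, an inhibitor of cytokine signalling, stood at 3.83, 3.73, 3.86 and 3.85 at 4 h, against 2.19, 1.81, 2.20 and 1.59 at 0 h, and rose by 1.87 ± 0.18. The NF-kB subunits Relb and Nfkb2 rose by 1.41 ± 0.14 and 0.92 ± 0.14, while Rela was at -0.23 ± 0.12 (adjusted p = 0.112). NF-kB inhibitors rose for 6 of 8 and fell for 0 (14.2% and 37.4% of genes as bright), with a median of 0.54 (0.33 within scan date 1 and 0.71 within scan date 2) that turned to -0.09 with arrays centred on their medians. Bcl3, an atypical member of that family, was at 2.87, 2.79, 2.94 and 3.28 at 4 h and at -0.14, 0.66, 0.49 and 0.45 at 0 h and rose by 2.6 ± 0.18.

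Sensors of microbes and damage rose for 19 of 26 and fell for 0, where 33.2% and 21.5% of genes as bright did. The co-receptor Cd14 had 0.88, 0.24, 0.48 and 0.07 at 4 h, against -2.81, -2.37, -2.6 and -2.52 at 0 h, the dead-cell receptor Clec4e (Mincle) rose by 3.11 ± 0.30, and Tlr2 by 1.73 ± 0.12. Inflammasome sensors and adaptors rose for 7 of 9 and fell for 1 (36.9% and 20% of genes as bright): the pyrin gene Mefv rose by 2.53 ± 0.23 and Nlrp3 by 1.86 ± 0.32. The inflammatory caspase Casp4 stood at 1.23, 1.39, 1.62 and 1.64 at 4 h, against -1.83, -0.41, -0.58 and -1.13 at 0 h. Its 0 h arrays were spread over more than 1 log2 unit, yet every 4 h value was higher. Interferon-stimulated genes rose for 23 of 34 and fell for 2 (22.4% and 28.8% of genes as bright), with a median of 0.58 that turned to -0.04 with arrays centred on their medians. The transcription factor Irf1 rose by 0.74 ± 0.09, the antiviral GTPase Mx1 by 1.24 ± 0.18 and the membrane protein Ifitm1 by 2.35 ± 0.16. Ifi202b, of the DNA-binding Ifi200 family, had -0.44, -0.03, -0.74 and 0.18 at 4 h, against -7.86, -5.17, -6.53 and -6.45 at 0 h, where 1 array was well above background. It rose by 6.25 ± 0.52, and all 6 tested members of that family rose, where 32.8% of genes as bright did. They share sequence, and whether their probes read each other was not tested.

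Genes of coagulation and the extracellular matrix were among the steepest rises. Of 13 coagulation and proteolysis genes 11 rose and 0 fell (median 2.33, with 50.8% of all genes of the same brightness rising), of 17 matrix genes 13 and 0, and of 12 complement genes 8 and 0. Among genes as bright 45.5% rose for the matrix list and 34.6% for complement. F3 (tissue factor), which starts blood clotting, was at -1.71, -1.93, -1.98 and -1.20 at 4 h and at -7.69, -6.67, -7.74 and -6.75 at 0 h. None of the 0 h arrays was well above background and F3 was at least 15.4-fold higher at 4 h (adjusted p = 1.22e-09). Thbs1, a matrix glycoprotein, had -1.86, -2.44, -2.25 and -1.77 at 4 h, against -7.84, -7.99, -7.21 and -6.63 at 0 h, at least 11.9-fold higher. Ccn1 stood at -0.59, -0.19, -0.57 and 0.36 at 4 h, against -6.63, -5.68, -5.56 and -5.83 at 0 h, at least 41-fold higher. The urokinase receptor Plaur rose by 3.11 ± 0.16, osteopontin (Spp1) by 2.88 ± 0.37, and the hyaluronan synthase Has1 was at least 4.54-fold higher. The growth factor Hbegf, measured on 3 of 4 arrays at 0 h, rose by 4.75 ± 0.19. The values of all genes named here were clear of each other between 4 h and 0 h.

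Immediate early transcription factors of the AP-1 and Atf families rose for 10 of 12 and fell for 0 (median 1.36), where 30.1% and 24.2% of genes as bright did. Atf3, a stress-induced repressor, was at 0.50, 0.59, 0.66 and 0.98 at 4 h and at -4.86, -3.47, -3.88 and -4.17 at 0 h, 27.5-fold higher (adjusted p = 9.63e-13). Fos had -1.53, -1.66, -0.70 and -0.68 at 4 h, against -3.90, -3.99, -3.86 and -3.94 at 0 h, and Jun -0.88, -0.87, -0.04 and -0.06 at 4 h, against -3.02, -2.95, -2.96 and -3.09 at 0 h. In both, replicates 3 and 4 were the higher pair at 4 h and the 0 h values were nearly equal. Fosl2 rose by 3.58 ± 0.23 and the survival gene Ier3, measured on 3 of 4 arrays at 0 h, by 4.75 ± 0.18. The Egr and Nr4a genes, which mark T cell receptor signalling, were split, with 3 up and 3 down of 8. Among genes as bright 34.1% rose and 23.1% fell. Nr4a3, measured on 3 of 4 arrays at 4 h and none at 0 h, was at least 2.03-fold higher (a change of 0 with the common floor). Egr2 was at -0.59 ± 0.17 (adjusted p = 0.00502).

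The F3 promoter is shown for its 2 matches to the AP-1 motif, searched as TGANTCA on both strands and marked by capitals (RefSeq, GRCm38.p6, plus strand, chr3:121723351-121723448, 5′ to 3′).
F3 promoter: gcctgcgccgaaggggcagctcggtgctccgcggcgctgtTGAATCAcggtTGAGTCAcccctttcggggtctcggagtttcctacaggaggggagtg
The motif stands in the 250 bases before the start of 7.82% of genes, and of 721 tested genes that hold it 50.6% rose and 16.8% fell. Of the 9 coagulation genes with a tabulated promoter, 4 hold it: F3, Plaur, Procr and Serpinb2. Among other lists that rose, 2 of 13 matrix genes, 1 of 9 CC ligands and 3 of 15 interleukins and growth factors hold it.

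Nearly all genes of DNA replication fell. Of 20 genes of the replicative helicase and its loading, 19 fell and 0 rose (median -0.88), of 24 polymerase and clamp genes 23 fell and 0 rose (median -0.68), and of 21 genes of nucleotide and folate supply 19 fell and 0 rose (median -0.92), where 36.5%, 36.3% and 33.1% of all genes of the same brightness fell. Mcm6, a subunit of the helicase, had 4.45, 4.13, 4.68 and 4.43 at 4 h, against 5.64, 5.67, 5.92 and 6.11 at 0 h, a change of -1.42 ± 0.15 (adjusted p = 2.65e-07). Cdc6, which loads the helicase at origins, was at -0.21, -0.37, -0.24 and -0.21 at 4 h and at 0.89, 0.74, 0.77 and 0.99 at 0 h, and Pcna, the sliding clamp, at 5.33, 5.19, 5.45 and 5.51 at 4 h and at 6.58, 6.41, 6.58 and 6.67 at 0 h. Within each time point these 2 genes varied little, and no 4 h value reached a 0 h value. Shmt1, the cytosolic serine enzyme that feeds thymidine synthesis, stood at -3.84, -3.75, -3.71 and -3.11 at 4 h, against -0.89, -1.06, -1.16 and -0.76 at 0 h, a change of -2.64 ± 0.20 (adjusted p = 2.8e-09). Its mitochondrial counterpart Shmt2 was at -1.56 ± 0.09, the purine enzyme Gart at -1.44 ± 0.10, the uracil glycosylase Ung at -2.23 ± 0.15 and the clamp loader subunit Rfc4 at -1.31 ± 0.11. Rrm2, the ribonucleotide reductase subunit, did not pass the test at -0.23 ± 0.14 (adjusted p = 0.172). Of 22 genes that control entry into S phase 13 fell and 4 rose, where 33.3% and 19.4% of genes as bright did: E2f1 was at -0.93 ± 0.11, cyclin E1 (Ccne1) at -1.14 ± 0.11, cyclin E2 (Ccne2) at -1.61 ± 0.40 and Cdk4 at -1.27 ± 0.10.

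The promoters of Mcm6 and Cdc6 are shown for matches to the E2F motif, searched on both strands as TTTCCCGC, TTTGGCGC or TTTCGCGC and marked by capitals (RefSeq, GRCm38.p6, 5′ to 3′ on the strand of the gene). Mcm6 is on the minus strand, at chr1:128359706-128359855, and Cdc6 on the plus strand, at chr11:98907973-98908060.
Mcm6 promoter: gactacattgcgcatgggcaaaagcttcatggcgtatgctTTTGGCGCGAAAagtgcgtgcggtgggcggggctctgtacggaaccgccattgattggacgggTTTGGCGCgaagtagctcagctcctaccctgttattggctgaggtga
Cdc6 promoter: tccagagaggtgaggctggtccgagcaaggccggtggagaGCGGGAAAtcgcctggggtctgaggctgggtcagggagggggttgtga
In Mcm6 the first capitals join 2 overlapping matches on opposite strands. One of these motifs stands in the 250 bases before the start of 1.78% of genes. Of 349 tested genes that hold one 40.4% fell and 17.5% rose, against 24.5% and 35.7% of all tested genes with a promoter in the table. The brightness of these genes was not matched. Of the 15 helicase and origin genes with a promoter 6 hold one, Cdc6, Gins3, Mcm5, Mcm6, Mcm7 and Orc1, and so do 7 of 17 genes that control entry into S phase. Other lists that fell hold few: 2 of 21 polymerase and clamp genes, 1 of 20 nucleotide and folate genes and 1 of 13 mitotic kinases and cyclins.

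Mitotic genes fell too. All 18 mitotic kinases and cyclins tested fell (median -0.95), as did 25 of 28 spindle and kinetochore genes and 14 of 18 genes of mitotic proteolysis and related functions, with no rise among the tested genes of these 3 lists. Among genes as bright 31.6%, 35.5% and 37% fell. Ccnb1 (cyclin B1) had 0.35, -0.27, 0.27 and -0.01 at 4 h, against 1.96, 1.84, 2.20 and 2.18 at 0 h, a change of -1.96 ± 0.18. The polo-like kinase Plk1, the checkpoint kinase Bub1b and the kinetochore protein Cenpf were at -1.13 ± 0.16, -1.33 ± 0.18 and -1.26 ± 0.16. Histone genes were split, with 7 up and 6 down of 23, where 15.1% and 38.3% of genes as bright rose and fell. The linker histone H1f3 stood at 2.98, 2.96, 3.21 and 2.64 at 4 h, against 0.56, 1.62, 1.01 and 1.05 at 0 h. H1f5 stood at 2.92, 2.78, 3.16 and 2.77 at 4 h, against 4.17, 4.04, 4.56 and 3.68 at 0 h. H1f3 was higher on every 4 h array and H1f5 lower. Histone copies are alike in sequence, and what each probe reads among them was not tested. DNA damage kinases and mediators fell for 12 of 19 and rose for 1, recombination and end joining genes fell for 11 of 21 and rose for 1, and excision, mismatch and crosslink repair genes fell for 8 of 21 and rose for 2. Among genes as bright 29.8%, 27.7% and 30.5% fell, and the last count is near that share. The checkpoint kinase Chek1 was at -1.33 ± 0.16, Nbn of the break-sensing complex at -1.04 ± 0.14, Parp1 at -0.89 ± 0.07 and the abasic endonuclease Apex1 at -1.43 ± 0.11. The base excision glycosylase Neil1 went the other way, with 4.15, 4.26, 4.52 and 4.31 at 4 h, against 2.49, 2.54, 2.68 and 2.51 at 0 h, a rise of 1.75 ± 0.14.

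Genes that build ribosomes and proteins fell with replication. Of 42 genes of ribosomal RNA synthesis and processing 39 fell and 0 rose (median -0.70), where 33.1% of all genes of the same brightness fell. Gnl3 (nucleostemin), a nucleolar GTPase, had -0.26, -0.25, -0.35 and -0.35 at 4 h, against 1.03, 1.07, 1.14 and 1.39 at 0 h, and Polr1b, a subunit of RNA polymerase I, was at -1.21 ± 0.10. Myc, a transcription factor known to drive such genes, stood at 0.16, -0.0017, 0.03 and 0.84 at 4 h, against 1.28, 1.55, 1.62 and 2.32 at 0 h, a change of -1.43 ± 0.33 (adjusted p = 0.00104). Replicate 4 was the highest at both times and the groups did not overlap. Mxd1, a Myc antagonist, rose by 1.13 ± 0.13, and Bcat1, a branched-chain aminotransferase known as a Myc target, had -5.86, -5.77, -4.41 and -5.15 at 4 h, against -2.17, -1.61, -1.73 and -1.10 at 0 h, with 1 array at 4 h well above background. Spermidine synthase (Srm) was at -2.13 ± 0.16. Translation factors fell for 14 of 20 and tRNA synthetases for 13 of 20, with no rise among those tested, where 40.3% and 33.5% of genes as bright fell, and examples were Eif5a at -1.08 ± 0.09 and the valine enzyme Vars at -1.0 ± 0.11. Ribosomal protein genes mostly did not pass the test: of 33 of the large subunit 2 rose and 7 fell, and of 28 of the small subunit 1 rose and 1 fell, where 43.3% and 43.8% of genes as bright fell.

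Chaperones and the proteasome fell. Of 15 Hsp70 and Hsp40 genes 12 fell and 1 rose (median -0.57), of 16 Hsp90, small and mitochondrial chaperones 13 fell and 1 rose, and all 8 subunits of the chaperonin TRiC fell (median -0.89). Among genes as bright 36.5%, 35.7% and 39.1% fell. Hsph1, an Hsp110 chaperone, was at 1.72, 1.80, 1.82 and 1.71 at 4 h and at 4.54, 4.36, 4.25 and 4.24 at 0 h, a change of -2.58 ± 0.27 (adjusted p = 2.13e-07). Hsp90aa1 had 5.13, 5.09, 5.31 and 5.42 at 4 h, against 6.64, 6.64, 6.82 and 7.0 at 0 h, and Cct3 was at -1.17 ± 0.10. The small chaperone Hspb1 went the other way, at -0.96, -0.87, -1.11 and -1.26 at 4 h, against -3.86, -2.02, -2.88 and -3.35 at 0 h, where the arrays were spread over almost 2 log2 units. Of 17 genes of the proteasome core 13 fell and of 19 of the regulatory particle 16, with no rise among those tested, where 42.7% and 41.1% of genes as bright fell. Psmc1 was at -0.79 ± 0.08 and Psma7 at -0.66 ± 0.10.

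Energy metabolism fell by smaller amounts. Complex I genes fell for 17 of 25 (median -0.36) and complexes II to V for 18 of 26 (median -0.39), with no rise among those tested, where 41.9% and 42.9% of genes as bright fell. Ndufv2 was at -0.70 ± 0.12, and cytochrome c (Cycs), which mitochondria release during apoptosis, at -0.96 ± 0.11. Of 19 glycolysis genes 12 fell and 3 rose, where 35.4% and 17.3% of genes as bright did: Tpi1 stood at 1.75, 1.75, 1.65 and 1.70 at 4 h, against 3.18, 3.32, 3.35 and 3.66 at 0 h, and Ldha was at -0.72 ± 0.08, while the lactate exporter Slc16a3 rose by 1.45 ± 0.12. Sterol synthesis genes fell for 11 of 24 and rose for 2 (28.7% and 23.4% of genes as bright), with Idi1 at -1.18 ± 0.17 and Sqle at -1.13 ± 0.11. Fatty acid genes were split, 4 up and 4 down of 13, near the 26.2% and 27.5% of genes as bright. The synthase Fasn was at -1.04 ± 0.12 and the desaturase Scd2 had 5.57, 5.89, 5.86 and 5.90 at 4 h, against 4.46, 4.41, 4.42 and 4.24 at 0 h. The pyruvate dehydrogenase kinase Pdk4, which turns cells to fatty acid use, was at least 14.6-fold higher (adjusted p = 8.83e-09).

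Of 21 antioxidant and Nrf2-linked genes 5 rose and 7 fell, where 18% and 35.5% of genes as bright did. Heme oxygenase (Hmox1) was at 1.65, 1.95, 2.13 and 2.06 at 4 h and at -1.0, -0.39, -0.60 and -0.92 at 0 h, and Srxn1, which repairs peroxiredoxins, rose by 2.71 ± 0.24. The metal-binding protein Mt2, of the same list, had 3.24, 3.34, 3.58 and 3.60 at 4 h, against 0.04, 0.65, 0.30 and 0.20 at 0 h, 8.82-fold higher. Glucocorticoid-responsive genes rose for 6 of 11 and fell for 1 (20.8% and 32.4% of genes as bright), with a median of 0.40 (0.20 within scan date 1 and 0.60 within scan date 2) that turned to -0.22 with arrays centred on their medians. The acute-phase factor Cebpd, of that list, rose by 1.93 ± 0.18. The clock-controlled repressor Bhlhe40, counted with the clock genes below, rose by 2.23 ± 0.17. Lysosomal genes rose for 9 of 19 and fell for 0, where 14.7% and 37.6% of genes as bright did.

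**Figure D3:**
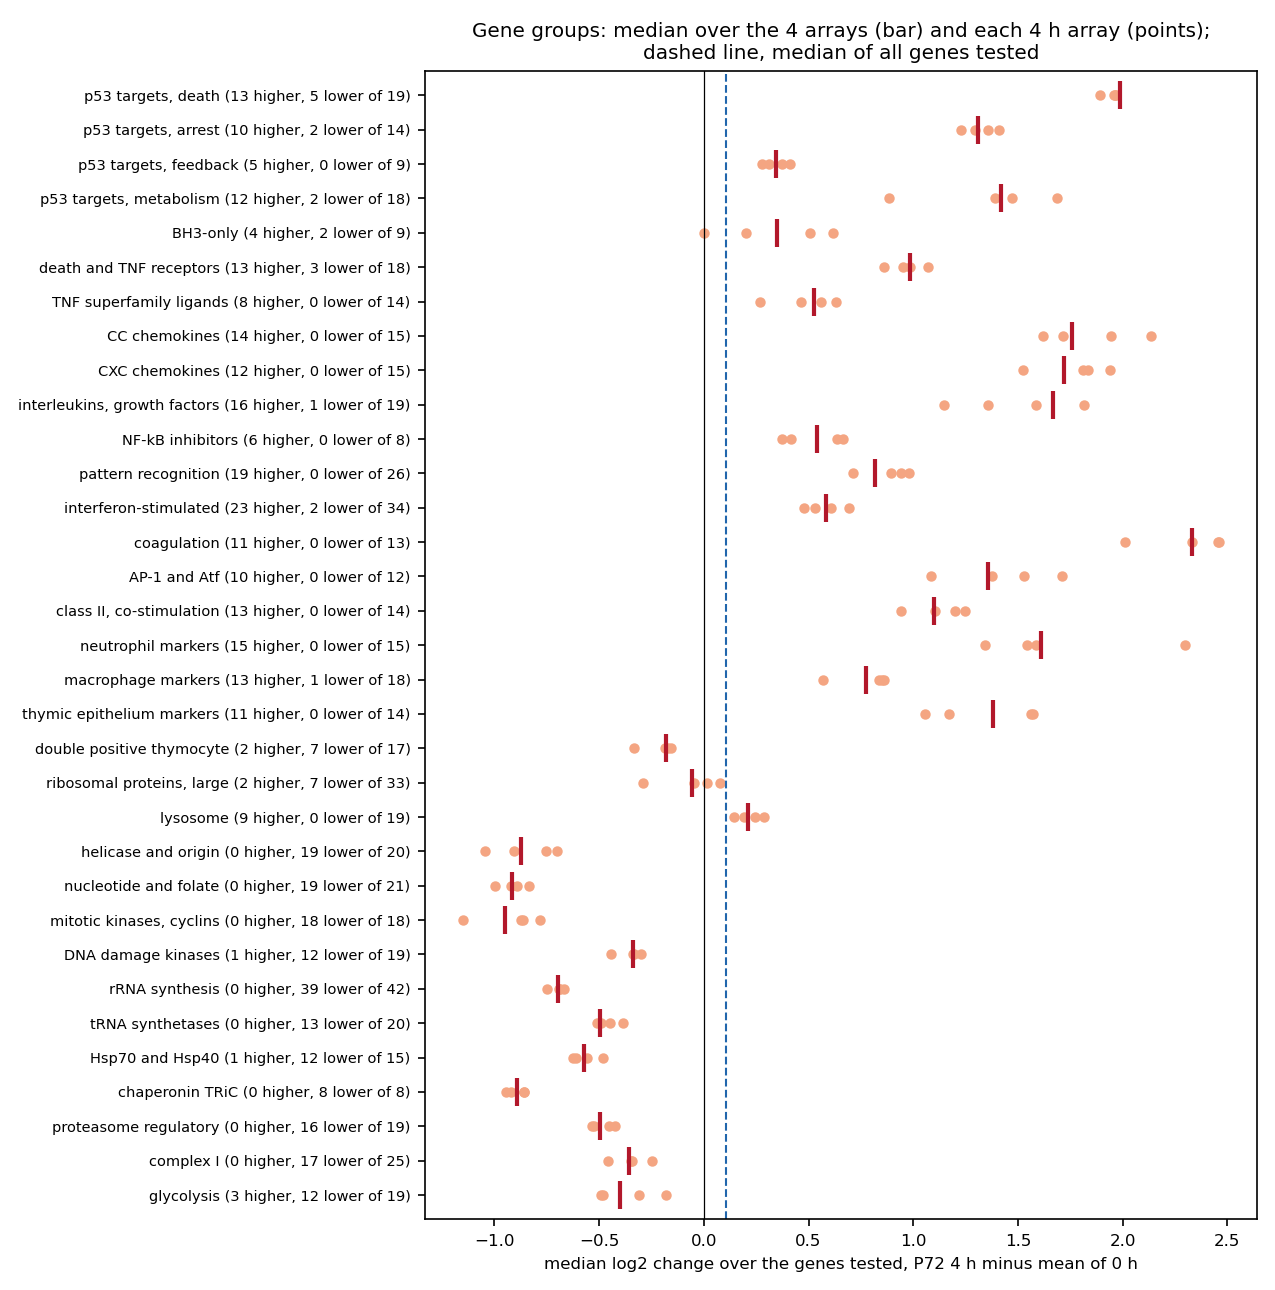
Median log2 change of 33 gene groups, P72 4 h minus the mean of 0 h, with the median change over the genes of a group as a bar, the median on each 4 h array as a point and the median of all genes tested (0.10) as a dashed line. Numbers after each name count members that rose and fell among those tested. Chemokine, coagulation and p53 death groups lie to the right and replication, mitosis and chaperone groups to the left of the dashed line on every array.

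The summed signal of double positive and of mature single positive markers overlapped between 4 h and 0 h, and that of double negative markers was lower at 4 h. The median change of the double negative list was 0.13, and a sum follows its brightest members. Of 17 double positive markers 2 rose and 7 fell, near the 13% and 40.1% of genes as bright. Their summed signal, in units of the 75th percentile, was 1227 to 1341 at 4 h and 1172 to 1407 at 0 h. Cd8a had 6.98, 6.96, 6.95 and 6.68 at 4 h, against 7.16, 7.16, 7.21 and 7.02 at 0 h, a change of -0.25 ± 0.11 that missed the threshold (adjusted p = 0.0587) and passed it with the replicate number as a block (adjusted p = 0.0399). Ptcra, the pre-T-cell receptor chain, was at -1.01 ± 0.13. Rag1, which cuts the receptor genes, rose by 0.38 ± 0.09 and turned to -0.25 with arrays centred on their medians. Markers of double negative cells rose for 6 and fell for 7 of 18 (25.8% and 28.4% of genes as bright), with Gata3 at -1.18 ± 0.09. They summed to 171 to 179.7 at 4 h and 226 to 250.4 at 0 h, without overlap. Markers of mature single positive cells rose for 10 and fell for 5 of 21, where 16.7% and 36.3% of genes as bright did. The membrane protein Ms4a4b had 4.52, 4.56, 4.88 and 5.04 at 4 h, against 3.14, 3.48, 3.52 and 3.15 at 0 h. Cd5, whose level follows receptor signal strength, was at -0.66 ± 0.10. Proximal T cell receptor genes rose for 5 and fell for 7 of 20 (15.1% and 38.1% of genes as bright), among them the kinase Lck at -0.44 ± 0.12.

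Markers of some other thymic cells rose beside the inflammatory genes. All 15 neutrophil markers tested rose, as did 13 of 18 macrophage markers (1 fell), 9 of 14 dendritic markers (0 fell) and 11 of 14 markers of thymic epithelium (0 fell). Among genes as bright 36.2%, 30.1%, 35.3% and 31.2% rose. Their summed signals at 4 h and 0 h were 72.2 to 149 and 35.6 to 63.3 for neutrophils, 92.3 to 122 and 32.4 to 61.6 for macrophages, and 57.6 to 84.4 and 13.8 to 33 for epithelium. Dendritic markers summed to 113 to 131 and 109 to 119, B cell markers to 5.52 to 6.7 and 5.39 to 7.49. Natural killer and innate lymphoid markers summed to 10.5 to 13.3 and 11.3 to 13.7. Erythroid and megakaryocyte markers rose for 4 and fell for 0 of 8, where 45% and 14.7% of genes as bright did. They summed to 30.6 to 84.2 at 4 h and 39 to 77.6 at 0 h. The dendritic, B cell, natural killer and erythroid sums all overlapped between the times. B cell markers rose for 3 and fell for 1 of 11, and natural killer and innate lymphoid markers for 4 and 1 of 11, and stromal and endothelial markers for 4 and 1 of 13. Among genes as bright 50.9%, 35.3% and 46.4% rose, and the counts of B cell and stromal markers lay below those shares. The neutrophil receptor Fpr1 was at -1.27, -2.38, -1.40 and -1.53 at 4 h and at -4.71, -4.45, -4.10 and -4.15 at 0 h, the macrophage factor Spic at 1.65, 1.81, 2.38 and 2.45 at 4 h and at -1.96, -0.48, -0.44 and -0.24 at 0 h, and the epithelial keratin Krt18 at 4.39, 4.53, 4.19 and 4.56 at 4 h and at 1.46, 2.69, 2.26 and 2.58 at 0 h. No 4 h array overlapped the 0 h arrays for these 3 genes. The part of these cell types in the rises of chemokine, cytokine, coagulation and sensor genes was not tested.

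Genes of antigen presentation and engulfment rose as well. Of 14 class II and co-stimulation genes 13 rose and 0 fell (median 1.10, with 24.9% of genes as bright rising), among them H2-Aa at 1.5 ± 0.20 and the co-stimulator Cd80, with -2.26, -2.26, -2.13 and -1.77 at 4 h, against -6.89, -5.34, -5.18 and -4.99 at 0 h. Class I and processing genes rose for 7 of 12 and fell for 1 (12.4% and 40.8% of genes as bright), with a median of 0.31 that turned to -0.31 with arrays centred on their medians. H2-K1 rose by 0.90 ± 0.11 and the immunoproteasome subunit Psmb8 fell, with -0.46 ± 0.06. Of 21 receptors and bridging proteins for the uptake of dying cells 16 rose and 0 fell, where 34.5% and 19.9% of genes as bright did. The transglutaminase Tgm2 stood at 2.16, 2.23, 2.20 and 2.12 at 4 h, against -1.12, -0.04, -0.10 and -0.28 at 0 h, the phagocyte receptor Lrp1 rose by 1.83 ± 0.21 and the scavenger receptor Cd36 by 1.80 ± 0.25. Cd80 and Cd36 were each well above background on 3 of 4 arrays at 0 h. Of 16 adhesion genes 8 rose and 4 fell (24.3% and 29.8% of genes as bright): the leukocyte docking proteins Icam1, Vcam1 and Selp rose by 1.28 ± 0.12, 1.72 ± 0.18 and 1.78 ± 0.21, while the integrin chain Itgb1 was at -0.35 ± 0.10.

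Of 20 chromatin genes 1 rose and 10 fell, where 18.7% and 34.1% of genes as bright did, with the maintenance methyltransferase Dnmt1 at -0.60 ± 0.10, the Polycomb methyltransferase Ezh2 at -0.65 ± 0.09 and the deacetylase Hdac1 at -0.95 ± 0.15. Splicing factors rose for 4 and fell for 7 of 21 (13.5% and 39.6% of genes as bright), with Tra2b at -0.96 ± 0.08 and the cold-inducible RNA-binding protein Cirbp at 1.18 ± 0.21. Autophagy genes rose for 5 and fell for 2 of 19 (24.3% and 30.8% of genes as bright): Dram1, a p53 target, rose by 1.88 ± 0.23 with 2 of 4 arrays well above background at 0 h. Clock genes rose for 8 and fell for 2 of 16, near the 40% and 17.2% of genes as bright. The period gene Per2 had -3.41, -2.46, -2.34 and -2.6 at 4 h, against -3.68, -3.99, -3.93 and -3.68 at 0 h. The groups did not overlap, and replicate 1 was the lowest at 4 h by about 1 log2 unit. The time of day at which mice were killed is not given in the sources used here. Hypoxia targets gave 3 rises and 2 falls of 11, near the 27.5% and 24.1% of genes as bright, with the vasodilator peptide Adm at 3.69 ± 0.23.

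Gene families not known for a role in thymocytes rose at 4 h as well. A gene that passed the filter on dim probes through the 4 h arrays alone had to be higher there, so all names were fitted: 488 of 910 olfactory receptor names rose and 1 fell, with a median of 1.23 beside 0.51 for all 28786 names. Of 127 vomeronasal receptor names 58 rose and 0 fell, and of 47 keratin names 37 and 0. In the same fit 8931 of all 28786 names rose and 3973 fell, and the families were not set beside names as dim. Between 17.5% and 38.4% of olfactory receptor probes were well above background at 4 h and between 14.3% and 16.6% at 0 h. The Speer genes, a testis family of near-identical copies, had a median change of 3.34 over all 11 names, of which 9 rose and 0 fell.

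Probes of 3 such genes, each 60 bases long, are shown because they were not well above background at 0 h and were so on 3 or 4 of 4 arrays at 4 h. Capitals mark G and C, and positions are those of the files (build mm7): Olfr494, an olfactory receptor, on the plus strand at chr7:104282660-104282719, Vmn2r43, a pheromone receptor, on the minus strand at chr7:7674385-7674444, and Mup5, a urinary protein of the liver and glands, on the minus strand at chr4:61268759-61268818.
Olfr494 probe: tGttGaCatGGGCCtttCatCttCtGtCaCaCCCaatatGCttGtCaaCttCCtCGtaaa
Vmn2r43 probe: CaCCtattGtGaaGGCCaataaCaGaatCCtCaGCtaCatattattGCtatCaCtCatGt
Mup5 probe: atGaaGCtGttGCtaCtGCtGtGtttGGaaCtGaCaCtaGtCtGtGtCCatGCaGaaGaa
Olfr494 had -3.84, -2.20, -3.12 and -2.72 at 4 h, against -7.28, -7.98, -7.43 and -7.17 at 0 h, at least 6.43-fold higher (adjusted p = 1.25e-06). Mup5 was at -3.95, -1.91, -3.42 and -2.95 at 4 h and at -7.94, -8.01, -8.05 and -7.87 at 0 h, at least 6.05-fold higher. Vmn2r43 stood at -4.88, -2.64, -3.99 and -2.97 at 4 h, against -7.69, -6.90, -7.78 and -7.65 at 0 h, with 3 of 4 arrays at 4 h well above background, and its change of 0.60 with the common floor was not called (adjusted p = 0.0637). Replicate 2 was the highest and replicate 1 the lowest at 4 h in all 3, and none was well above background at 0 h. Another 11827 probes did not pass the filter on dim probes. Among them, those with up to 20 G and C bases changed by a median of 0.71 and those with 33 or more by 1.41.

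Other large changes were those of the muscle M-band gene Myom3, at 0.61, 2.47, 0.73 and 0.95 at 4 h and -6.21, -4.93, -5.85 and -4.43 at 0 h (2 of 4 arrays well above background), and of the mitochondrial D-glutamate enzyme Dglucy, at 3.19, 3.36, 3.19 and 3.48 at 4 h and -1.91, -1.61, -1.59 and -1.77 at 0 h. Dglucy varied little within a time point and rose 32.4-fold, while replicate 2 of Myom3 stood above the others at 4 h. Deep falls included the neurotrophic receptor Gfra1, measured on 1 of 4 arrays at 4 h, at -2.47 ± 0.24, the hypoxia-responsive Ankrd37 at -1.97 ± 0.13, the sulfatase Arsi at -1.82 ± 0.16, the Myc target Cdca7 at -1.87 ± 0.13, the killer cell protease Gzma at -1.81 ± 0.21 and the pseudouridine synthase Pus7 at -1.67 ± 0.14.

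The comparison of 4 h with 2 h asks which parts of the response differed between the times. At 2 h 14.5% of genes were called against 0 h, 9.65% higher and 4.88% lower. Between 2 h and 4 h, 6599 genes differed (32.1% of 20537), 4403 higher (21.4%) and 2196 lower (10.7%) at 4 h. Of these calls 66.7% were higher at 4 h, and 52.1% after quantile normalization, 52.6% in the authors' tabulated values and 19.1% with arrays centred on their medians. Scan date 1 alone gave 761 higher and 731 lower, and scan date 2 alone 2179 and 276. Replication genes were lower at the later time: 18 of 20 helicase and origin genes, 21 of 24 polymerase genes and 19 of 21 nucleotide genes were lower at 4 h than at 2 h, and the helicase list had medians of -0.18 at 2 h and -0.88 at 4 h, both relative to 0 h. Mcm6 at 2 h was at 5.07, 5.45, 5.73 and 5.65, and was lower at 4 h by a difference of -1.05 ± 0.15 (adjusted p = 6.89e-05). The mitotic kinases and cyclins stood at -0.71 at 2 h and -0.95 at 4 h, and 4 of 18 members were lower at 4 h than at 2 h. Ccnb1 was at -0.41, -0.10, 0.14 and -0.10 at 2 h, a change of -2.16 relative to 0 h (adjusted p = 2.88e-08), and differed from 2 h to 4 h by 0.20 ± 0.18 (adjusted p = 0.401).

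Among p53 death targets 2 were higher and 5 lower at 4 h than at 2 h, with list medians of 1.66 at 2 h and 1.99 at 4 h. Phlda3 stood at 5.53, 5.69, 5.60 and 5.72 at 2 h and was lower at 4 h (-0.59 ± 0.10, adjusted p = 0.000425), and so were Mdm2 (-0.45 ± 0.12), Ppm1d (-0.54 ± 0.07) and Ccng1 (-0.51 ± 0.11). Cdkn1a differed by 0.27 ± 0.24 (adjusted p = 0.419) and Bbc3 by -0.10 ± 0.09 (adjusted p = 0.371). Inflammatory genes were higher at the later time: 10 of 15 CC ligands, 8 of 15 CXC and other ligands and 7 of 13 coagulation genes were higher at 4 h than at 2 h. Cxcl1 was at -5.78, -6.98, -6.19 and -5.82 at 2 h, none of them well above background. F3 was at -4.73, -6.14, -4.97 and -6.62 at 2 h, with 2 of 4 arrays well above background, and differed by 3.91 ± 0.39 (adjusted p = 1.89e-06), and Ifi202b, with 3 of 4, by 4.24 ± 0.52. Tnfsf4 stood at -1.0, -0.82, -0.56 and -0.72 at 2 h, with a difference to 4 h of -0.07 ± 0.27 (adjusted p = 0.876).

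**Figure D4:**
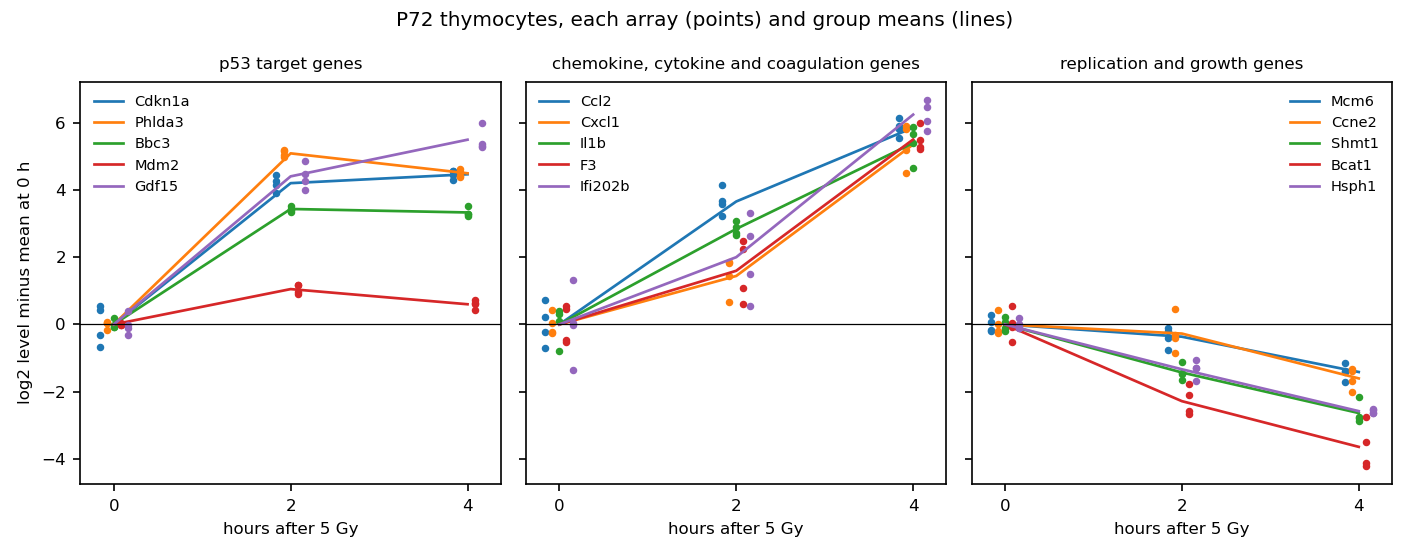
Log2 level minus the 0 h mean in P72 thymocytes at 0, 2 and 4 h after 5 Gy, with each array as a point (4 per time) and group means as lines. Left, p53 targets, of which Phlda3 peaked at 2 h with 5.09 beside 4.50 at 4 h; middle, chemokine, cytokine, coagulation and interferon genes, whose means were highest at 4 h; right, replication and growth genes, whose means were lowest at 4 h.

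The difference between the responses of P72 and R72 at 4 h bears on the variant at codon 72. Of 20536 genes 0 were called by limma (0%), with 1156 at an unadjusted p under 0.05 and a smallest adjusted p of 0.378, of Wfdc12, a secreted protease inhibitor. Wfdc12 stood at 2.64 ± 0.22 in P72 and at 0.90 in R72, and was well above background on 1 of 4 P72 arrays at 4 h and on none at 0 h, so that its change in P72 was 0 with the common floor. In R72 alone 44.8% of genes were called between 4 h and 0 h, 28.8% higher and 16% lower. The difference of responses was 0.79 ± 0.34 for Cdkn1a, 0.03 ± 0.12 for Bbc3, 1.15 ± 0.43 for Il1b, 0.65 ± 0.42 for Ccl2 and 0.11 ± 0.21 for Mcm6. Ier3, Il1r2 and Hdac1, which the naming rule took by their p, differed by 1.15 ± 0.25, 1.23 ± 0.28 and -0.77 ± 0.22 (adjusted p = 0.497, 0.536 and 0.647). With errors of this size, a miss of the threshold does not show that the variants act alike. List medians in P72 and R72 were 1.99 and 1.59 for p53 death targets, 1.76 and 1.20 for CC ligands, 2.33 and 1.48 for coagulation and -0.88 and -0.70 for helicase and origin genes. Other lists were nearly equal, such as polymerase and clamp genes (-0.68 in both) and nucleotide and folate genes (-0.92 and -0.91). In others R72 changed more, such as p53 feedback (0.34 and 0.47) and glycolysis (-0.40 and -0.53). Dim genes as a whole also had larger medians in P72: 1.21 and 0.90 for levels from -6 to -4, and 0.50 and 0.36 from -4 to -2. The median level was -4.21 for coagulation genes and -1.89 for CC ligands. Negative control spots in R72 stood at -7.95 to -7.40 at 4 h and -8.50 to -7.13 at 0 h. The part of brightness in the gaps between P72 and R72 lists was not tested.

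The response of P72 was also set against that of thymocytes labelled p53-/-. The Trp53 probe read -0.47 on the p53-/- array at 4 h and -0.26 and -0.10 on those at 0 h, beside -0.12 to 0.46 on the 8 P72 arrays. Whether it lies in the deleted part is not given in the sources used here, so it does not check the label. In p53-/- thymocytes 43 genes were called at 4 h (0.209%), 0.19% higher and 0.0195% lower, by the test of 1 against 2 arrays, with 1670 at an unadjusted p under 0.05. The lone array at 4 h was assumed to vary like the other groups. The responses differed for 3349 genes (16.3% of 20535), 2425 with a change more positive in P72 (11.8%) and 924 with one more negative (4.5%). Without p53-/- 0 h replicate 1 the counts were 1258 and 518, and without replicate 2 1329 and 494. The share of calls more positive in P72 was 72.4%, against 55% after quantile normalization, 51.9% in the authors' tabulated values and 19.3% with arrays centred on their medians. Below, values are changes at 4 h relative to 0 h. The p53-/- arrays were scanned on a date shared with p53+/+ arrays but with no P72 array, so that genotype and scan date cannot be told apart in levels, while each response lies within its own dates. The 3 p53-/- arrays used were all on the Xist-low side.

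Of p53 death targets 13 of 19 had a more positive response in P72 and 2 a more negative one, and the list medians were 1.99 in P72 and -0.11 in p53-/-. Phlda3 stood at 4.50 ± 0.10 in P72 and -0.20 in p53-/-, a difference of 4.70 ± 0.20 (adjusted p = 6.34e-13). Bbc3 stood at 3.33 in P72 and 0.02 in p53-/- (difference 3.31 ± 0.17), and Cdkn1a at 4.47 in P72 and 1.19 in p53-/- (difference 3.28 ± 0.47, adjusted p = 0.000109). The responses of Atf3 differed by 4.37 ± 0.40. Dglucy, with a change of 5.02 in P72 and 0.25 in p53-/-, the kinase inhibitor Inka2 (2.63 and -0.12) and Glipr1 (2.13 and -0.26) were among the rises with the smallest p of the difference.

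Replication also divided the genotypes. Of 20 helicase and origin genes 18 had a more negative response in P72, of 21 nucleotide genes 18 and of 18 mitotic kinases and cyclins 14, and the helicase medians were -0.88 in P72 and 0.19 in p53-/-. Cdc6 stood at -1.10 in P72 and 0.58 in p53-/- (difference -1.68 ± 0.23, adjusted p = 5.94e-05), Ccne1 at -1.14 and 0.67, Pcna at -1.19 and 0.24, Shmt2 at -1.56 and -0.21, the remodeller Hells at -1.55 and 0.15 and the dUTPase Dut at -1.18 and 0.30 in P72 and p53-/-. Of 42 ribosomal RNA genes 15 had a more negative response in P72. Myc stood at -1.43 in P72 and 0.76 in p53-/- (difference -2.19 ± 0.64, adjusted p = 0.0233).

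Some inflammatory and stress genes rose in p53-/- thymocytes too. Ccl2 rose by 4.48 there (adjusted p = 4.69e-05), beside 5.86 in P72, and the difference of 1.38 ± 0.57 missed the threshold (adjusted p = 0.102). Il1b rose by 2.83 (adjusted p = 0.0144) beside 5.40 in P72, a difference of 2.57 ± 0.58 (adjusted p = 0.0053). Hmox1 stood at 2.67 in P72 and 2.86 in p53-/- and Mt2 at 3.14 in P72 and 2.39 in p53-/-. CC ligands had medians of 1.76 in P72 and 0.93 in p53-/-, with 5 of 15 more positive in P72. Neutrophil markers had medians of 1.61 and 0.57, with 3 of 15 more positive in P72. The negative control spots on the p53-/- arrays stood at -8.46 at 4 h and -8.39 and -8.14 at 0 h.

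**Figure D5:**
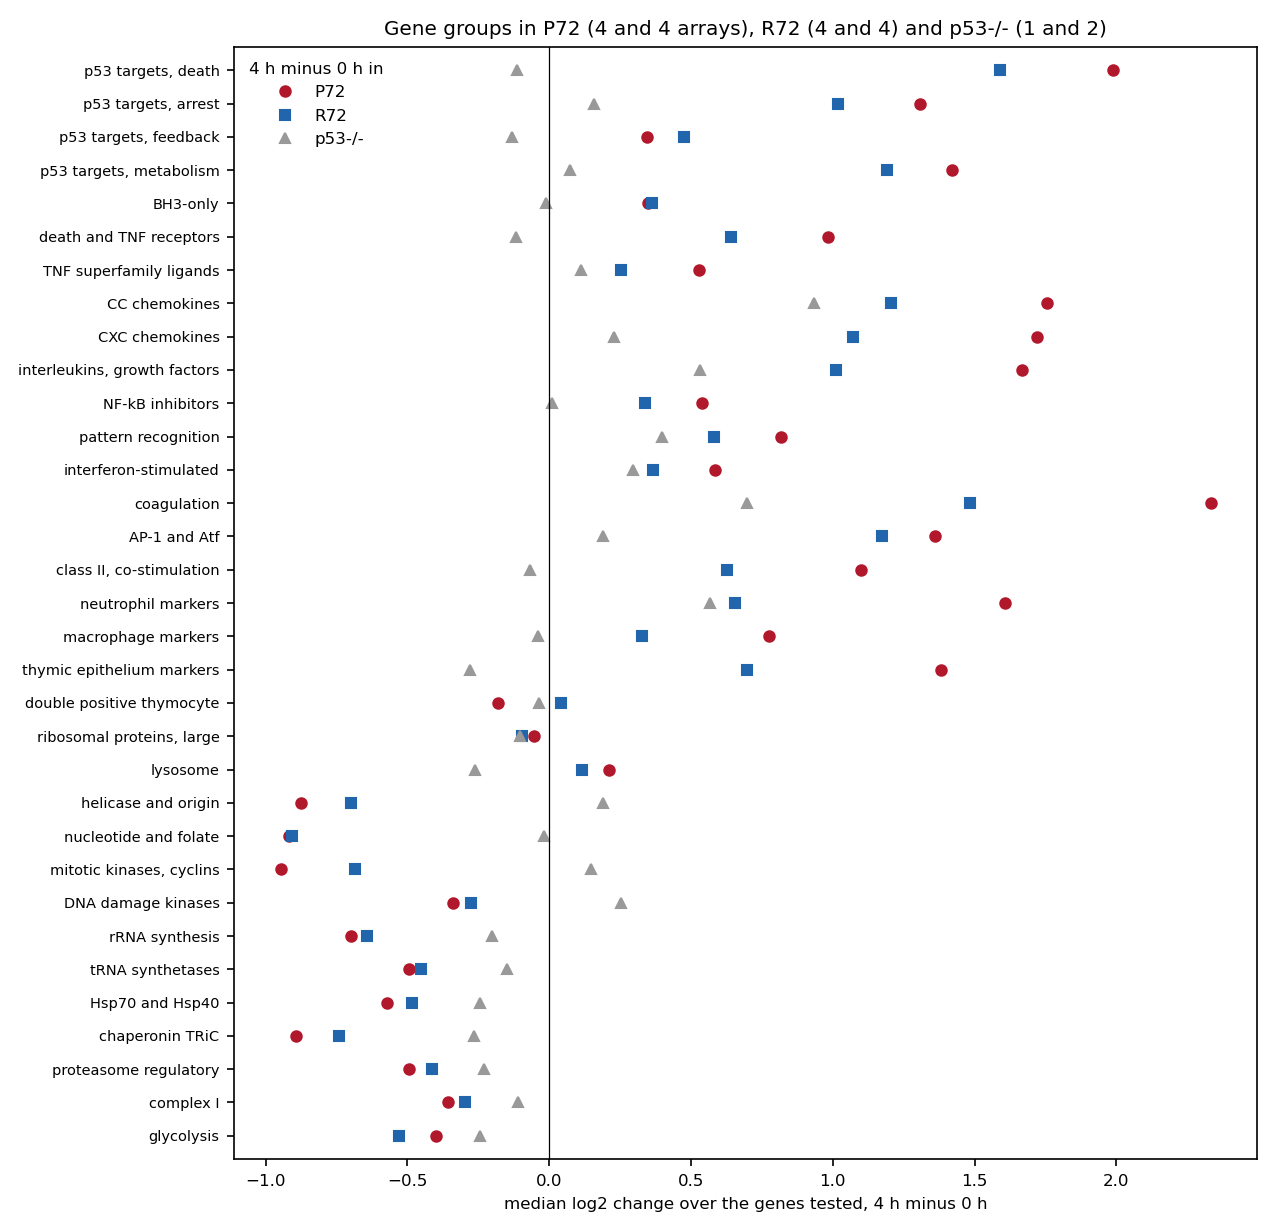
Median log2 change at 4 h minus 0 h of 33 gene groups in P72 (red circles, 4 and 4 arrays), R72 (blue squares, 4 and 4) and p53-/- (grey triangles, 1 and 2). The p53-/- symbols lie nearer to 0 than those of P72 and R72 for p53 death targets (1.99 in P72, 1.59 in R72 and -0.11 in p53-/-).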

How the data were processed

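Thymocyte RNA was hybridised to single-colour (Cy3) Agilent arrays of 60-base probes, 1 sample per array. Per the labels, RNA was extracted with TRIzol and the RNeasy kit and 500 ng was amplified with the QuickAmp kit. The scanner files deposited by the authors hold fluorescence intensity per spot from Agilent Feature Extraction 9.5.3.1 per the file headers (9.5.3 per the submitters' processing notes), with the local background removed by a fitted trend surface and no scaling between arrays. The authors' deposited value table holds log2 values with near-equal distributions across arrays, whose normalization is not given in the sources used here; it was used as an alternative. The dose was 5 Gy of Cs-137 gamma radiation per the labels.

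Control spots (1639 of 43379) and flagged values (0.223%) were left out, and spots of one probe were averaged. Levels are log2 processed intensities from which each array's own 75th percentile was subtracted, and log2 differences were fitted with limma 3.58.1 in R 4.3.3 (lmFit, eBayes, two-sided, Benjamini-Hochberg at 0.05). Genes needed a probe well above background on at least 4 of 32 arrays, and the brightest probe stood for a gene. Symbols were updated through RefSeq for 5141 of the 22951 probes matched by accession, of 41174. P72 and R72 contrasts were fitted on 24 arrays in 6 groups and those with p53-/- on 32 arrays in 12 groups. Exact permutation tests compared array measures. A lower bound for a fold uses the lowest signal well above background on each dim array. Arrays have no depth, and their number limits the precision. The fit was tested on simulated data.

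The 83 gene lists (1401 genes, 1338 tested), the members and the tests were chosen with earlier results of these data known. Named genes are the 30 that rose and fell most without overlap, up to 6 called members per list and direction, up to 3 against the majority or not called, the top 10 on each side of each other contrast, and Trp53 and Xist; the text takes the top of each. Same-numbered samples deviated together (correlations of 0.12 to 0.19 over genes between 4 h and 0 h, each best with its own number). Between 4 h and 2 h, replicate 2 at 4 h went best with replicate 4. The numbers were treated as pairs only in the replicate block, while the main fits and the permutation tests took the arrays as unpaired. Alternatives were normexp background correction (offset 50), quantile normalization, median centring, the authors' table, other filters, the mean of probes, blocks for replicate, slide and scan date, single scan dates, the compared arrays alone and leaving out each array. A common floor and normexp with median backgrounds were added after seeing the data, the second because normexp with local backgrounds failed on some arrays.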

Additional observations from a re-analysis of the deposited data

Results flagged for a closer look

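In 22 of 366 groups of 4 values examined (the 4 h and the 0 h arrays of 183 genes), 1 array stood apart, with a gap to its neighbour above 0.829 of the range of the group, which chance gives in about 1 in 20 groups. At 4 h the gap was 0.842 of the range for Aen, 0.885 for Apex1, 0.829 for Bhlhe40, 0.906 for Cd8a, 0.876 for Cycs, 0.887 for Gdf15, 0.878 for Gzma, 0.954 for Rfc4 and 0.884 for Scd2. At 0 h it was 0.922 for Cebpd, 0.848 for Cxcl2, 0.868 for Cycs, 0.951 for Dusp1, 0.887 for Ei24, 0.958 for Has1, 0.888 for Icam1, 0.848 for NAP056910-1, 0.844 for Nlrp3, 0.862 for Spic, 0.972 for Spp1, 0.86 for Vars and 0.855 for Vmn2r43. At 0 h replicate 1 was the lowest array in 5 of these cases and replicate 2 the highest in 3. No correction was made for these arrays.

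The response at 4 h differed between P72 and p53-/- for 2425 genes with a more positive and 924 with a more negative change in P72 (limma, adjusted p under 0.05), with 1 p53-/- array at 4 h. Among the genes with the smallest p on the positive side the log2 difference of responses was 2.41 for Aen, 1.86 for Aldh4a1, 3.31 for Bbc3, 4.77 for Dglucy, 2.39 for Glipr1, 2.75 for Inka2, 4.70 for Phlda3 and 2.72 for Psrc1. On the negative side it was -1.81 for Ccne1, -1.68 for Cdc6, -1.48 for Dut, -1.71 for Hells, -1.43 for Pcna and -1.35 for Shmt2.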

How the results depend on the processing

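Of 177 genes named and called between 4 h and 0 h, 157 kept their direction and call under all 23 alternatives and 176 without each array in turn (the exception was NAP056910-1). Over single left-out arrays 6718 to 7336 genes rose and 3808 to 4029 fell at 4 h, 3042 to 4807 were higher and 1574 to 2035 lower than at 2 h, 0 to 1 had a higher and none a lower response than in R72 (the 1 without R72 4 h replicate 2), and 1258 to 3083 had a more positive and 494 to 928 a more negative response than in p53-/-. With normexp and local backgrounds 3227 genes rose and 2642 fell at 4 h, 414 were higher and 432 lower than at 2 h, and 182 and 155 differed from p53-/-; with median backgrounds, added after seeing the data, 1495 were more positive than in p53-/-. Median centring gave 4108 and 11285 at 4 h, 2158 and 9134 against 2 h, and 1414 and 5930 against p53-/-. Quantile normalization gave 2720 higher than at 2 h and 1430 more positive than in p53-/-, and the authors' tabulated values gave 2595 and 1223. Genes well above background on every array of the fit gave 3645 rises at 4 h, 2101 against 2 h and 1284 against p53-/-. Scan date 2 alone gave 2222 falls at 4 h, and 2179 higher and 276 lower than at 2 h, while scan date 1 gave 761 and 731 against 2 h. These fits hold fewer samples. The common floor, also added after seeing the data, gave 1538 more positive than in p53-/- and 9 higher than in R72, and the arrays of the compared groups alone gave 1 lower than in R72. The cause of these shifts was not tested.

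Directions turned for Mcl1 with normexp (-0.061), median centring (-0.52) and scan date 1 (-0.0085), for Bcl2 with quantile normalization (0.032) and the mean of probes (0.19), and for Trp53 with median centring (-0.58), slide as a block (-0.047) and without P72 4 h replicate 2 (-0.023, in a range of -0.023 to 0.172 over left-out arrays), none of them called in the values reported. With median centring Mdm2 (-0.023) and Rag1 (-0.25) turned, as did the medians of p53 feedback genes (-0.28), TNF ligands (-0.10), chemokine receptors (-0.074), NF-kB inhibitors (-0.085), interferon-stimulated genes (-0.039), Ier, Dusp and Klf genes (-0.33), glucocorticoid genes (-0.22) and class I genes (-0.31). The replicate block gave 7571 rises and 4629 falls at 4 h, against 7355 and 4278 without it, and it changed the call of 1 named gene, Cd8a (adjusted p = 0.0399, limma). It gave 4751 higher and 2638 lower than at 2 h, and 0 differences from R72. Scan date 3 alone could not be fitted, nor scan date 2 alone for the comparison with R72, nor the comparison with p53-/- without its array at 4 h. Genes not well above background at 0 h have only a lower bound, and the precision of all others rests on 4 arrays a group.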

Other observations

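Stress responses of the endoplasmic reticulum were mixed in P72 thymocytes at 4 h. Of 19 chaperones and sensors of that compartment 2 rose and 11 fell, against 14.3% and 38.3% of genes as bright: Xbp1, the transcription factor of the unfolded protein response, had 1.28, 1.22, 1.01 and 1.28 at 4 h, against 1.98, 1.94, 1.49 and 1.68 at 0 h, and the co-chaperone Sdf2l1 was at -0.78 ± 0.13. Of 19 genes of the amino acid and Atf4 response 7 rose and 5 fell (24.6% and 27.7% of genes as bright), among them the glutathione-degrading enzyme Chac1, with no 0 h array well above background and a level at least 3.87-fold higher at 4 h (adjusted p = 4.93e-06, limma). Caspases rose for 4 and fell for 2 of 9 (22.8% and 30.3% of genes as bright), with the inflammatory Casp1 at 1.02 ± 0.18, a call lost with arrays centred on their medians (adjusted p = 0.0671). The Ier, Dusp and Klf genes of the immediate early response rose for 9 and fell for 2 of 16 (19.4% and 34.8% of genes as bright), and their median of 0.29 turned to -0.33 with arrays centred on their medians. The phosphatase Dusp1, which shuts off stress kinases, had 0.94, 0.99, 1.41 and 1.57 at 4 h, against 0.02, 0.02, 0.03 and 0.23 at 0 h.

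Over all names, with no filter on dim probes, 21 of 35 keratin-associated proteins of hair rose and 0 fell, and of 36 antimicrobial defensins 23 rose and 1 fell. In the same fit 8931 of all 28786 names rose and 3973 fell, and neither family was set beside names as dim.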
